A study of Mus musculus with 4 samples.

Results

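Aminoacyl-tRNA synthetases, the enzymes that load each tRNA with its amino acid, were examined in regulatory T (Treg) cells stimulated with thymic stromal lymphopoietin (TSLP) or with PBS. The 36 members were taken by their gene symbols from a table of 24418 genes, and all 36 were found. Of these, 20 encode cytosolic enzymes and 16 encode enzymes that work in mitochondria. Lars2, the mitochondrial leucine enzyme, was kept apart from the other 15 because reads of ribosomal RNA can align to it. Treg cells were sorted from the spleen and lymph nodes of Foxp3YFP-Cre mice, in which the Foxp3 locus drives a fusion of yellow fluorescent protein and Cre recombinase, so that both groups carried this allele. They were held for 3 h with PBS or TSLP, an epithelial cytokine, and RNA was sequenced in 2 libraries per group, which are called PBS 1 and PBS 2, and TSLP 1 and TSLP 2, and are always given in that order. The labels do not say whether the 2 libraries of a group came from separate animals. The study used sex-matched young adult mice, and no age is given for single libraries. The p-values therefore measure only the spread between these libraries, which may be technical.

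In the cytosol of animal cells, a group of these enzymes, including the fused glutamate and proline enzyme Eprs, is held together with scaffold proteins in the multisynthetase complex. Mitochondria translate their own small genome and import a separate set of synthetases encoded in the nucleus, mostly named with a final 2. Gars and Kars are known to give both cytosolic and mitochondrial forms from a single gene, and the enzymes fall into class I and class II by the fold of the catalytic domain. Shortage of amino acids is sensed by the kinase GCN2 (Eif2ak4), which raises translation of the transcription factor Atf4, and many cytosolic synthetase genes are known targets of Atf4. Activated T cells are known to increase protein synthesis and with it the demand for charged tRNA.

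Each library had been scaled by its own size factor, and the scaled counts are here called normalized counts, from which whole reads could be recovered. The PBS libraries held 11328132 and 10724392 reads on genes and the TSLP libraries 11761234 and 10271571. A count of 0 allows a true level of up to 3 reads, a limit that covers counting error only. Positions of genes are those of mm10 in the GENCODE M21 annotation. The library PBS 1 stood apart from the others by gene length. Across 7881 genes, which are not independent replicates, its log2 ratio to the other 3 libraries had a Spearman rho of −0.508 with exon length, against 0.362 for PBS 2, 0.290 for TSLP 1 and 0.155 for TSLP 2. Results are therefore also given without PBS 1, and the counts and levels among them were added after seeing the data. The defining Treg genes were read in every library. Foxp3, the lineage factor, had 2514 and 5065 reads in the PBS libraries, against 4784 and 4824 with TSLP. Markers of other cells were read at lower levels, with CD8 T cell genes (Cd8a and Cd8b1) at a summed 7.83 to 13.4 cpm, which are reads divided by the sum of all reads on genes in that library and set to a common scale, B cell genes at 0.618 to 10.4 cpm and myeloid genes at 8.59 to 17.6 cpm, the highest of which was Cd68 in PBS 1 (15.4 cpm).

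The response of synthetase genes to amino acid shortage is known to run through a short element bound by Atf4 with C/EBP proteins, and its core was searched for in the promoters of the members. The core was spelled TGATGNAAN and read on both strands of the 300 bases from 250 before to 50 after each start site (RefSeq, build GRCm38.p6). It was found in 5 of the 13 cytosolic genes with a promoter window (38.5%) and in 0 of the 14 mitochondrial genes with a window. Of all 27025 genes with a window, 1215 (4.50%) held it. A match is a description of these letters and not a site of binding. No window was at hand for Cars, Hars, Lars, Nars, Rars, Vars, Wars, Hars2 and Pars2. The 30-base windows that hold the match nearest the start site of each gene, and not the match alone, lie at chr8:111033840-111033869 (Aars, plus strand), chr6:55037960-55037989 (Gars, plus strand), chr13:49682126-49682155 (Iars, plus strand), chr15:11399655-11399684 (Tars, minus strand) and chr4:129189896-129189925 (Yars, plus strand). These windows are shown because they mark the cytosolic genes that could be read against the amino acid response, each 5′ to 3′ on the strand of the gene with the core or its reverse complement in capitals.
Aars: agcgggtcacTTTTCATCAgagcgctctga
Gars: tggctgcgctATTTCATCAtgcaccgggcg
Iars: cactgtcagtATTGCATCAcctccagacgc
Tars: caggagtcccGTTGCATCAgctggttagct
Yars: cgagctcagcTGATGCAACccgacgggact
Iars and Tars share the letters TTGCATCA, and Yars holds their reverse complement. The first letter of the match lay 31 bases before the start site in Gars and 16 before in Tars, and 3 to 8 bases after it in Yars, Iars and Aars.

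With TSLP, the median fold change of the synthetase genes lay near that of all genes, and a single member on each side passed an unadjusted p of 0.05. Wars, the cytosolic tryptophan enzyme, was higher, and Lars2 was lower. Groups were compared by limma, as log2 of the normalized count plus a pseudocount of 1, for 11392 genes that reached 10 normalized counts in at least 2 libraries. All 36 synthetase genes passed this filter. By limma with Benjamini-Hochberg adjustment, 0 of the 36 had an adjusted p under 0.05, as did 0.0% of all genes tested. The smallest adjusted p was 0.9999, and every synthetase gene had this value. An exact permutation test of 2 libraries against 2 cannot give a two-sided p under 0.333, so that none was run for single genes. At an unadjusted p under 0.05, 1.69% of all genes were called (0.772% higher and 0.913% lower with TSLP), and edgeR and DESeq2 called the same 2 members without adjustment and 0 with it. No change of a synthetase gene therefore holds after adjustment. In bulk RNA, fewer cells that express a gene and less of its RNA per cell cannot be told apart.

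The median log2 fold change was 0.07 for the 20 cytosolic genes and 0.06 for the 15 mitochondrial genes without Lars2, beside 0.01 for all genes tested, and with the trend over exon length removed the cytosolic median was −0.017 and the mitochondrial one 0.025. Of the cytosolic genes, 12 had a fold change above 0 and 8 below, with a range of −0.24 to 0.87. Of the mitochondrial genes, 9 lay above and 6 below, with a wider range of −1.29 to 0.91. Of all 11392 genes tested, 5838 lay above 0 and 5554 below. The cytosolic values were the more precise, with standard errors of 0.21 to 0.35 against 0.25 to 0.88. Both TSLP libraries were above both PBS libraries in 6 of the 36 genes and below them in 4, while this held for 14.5% and 14.4% of all genes tested. Those above were Farsb, Rars, Tars, Wars, Yars and Vars2. Those below were Nars, Vars, Nars2 and Lars2. Against PBS 2 alone, without PBS 1, 10 of 36 were above and 9 below, beside 31.7% and 32.4% of all genes. With each library left out in turn, the fold change kept its sign in 17 of the 36 genes, namely 12 of the 20 cytosolic genes, 4 of the 15 mitochondrial genes (Mars2, Nars2, Vars2 and Wars2) and Lars2. Kept signs were not counted over all genes, so that these counts do not set the members apart.

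The difference between the medians of the cytosolic and the mitochondrial genes was 0.01 on the log2 scale, less than the spread of that difference between libraries of a group (SD of 0.17, n = 2 per group). Without PBS 1 it was 0.24, since the mitochondrial median was then −0.15, while the cytosolic median was 0.09. In cpm, the 20 cytosolic genes together took 2465 and 2372 with PBS and 2579 and 2427 with TSLP. The 15 mitochondrial genes took 347 and 377 with PBS and 349 and 379 with TSLP. The sums overlapped between the groups for both kinds of enzyme.

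**Figure D1:**
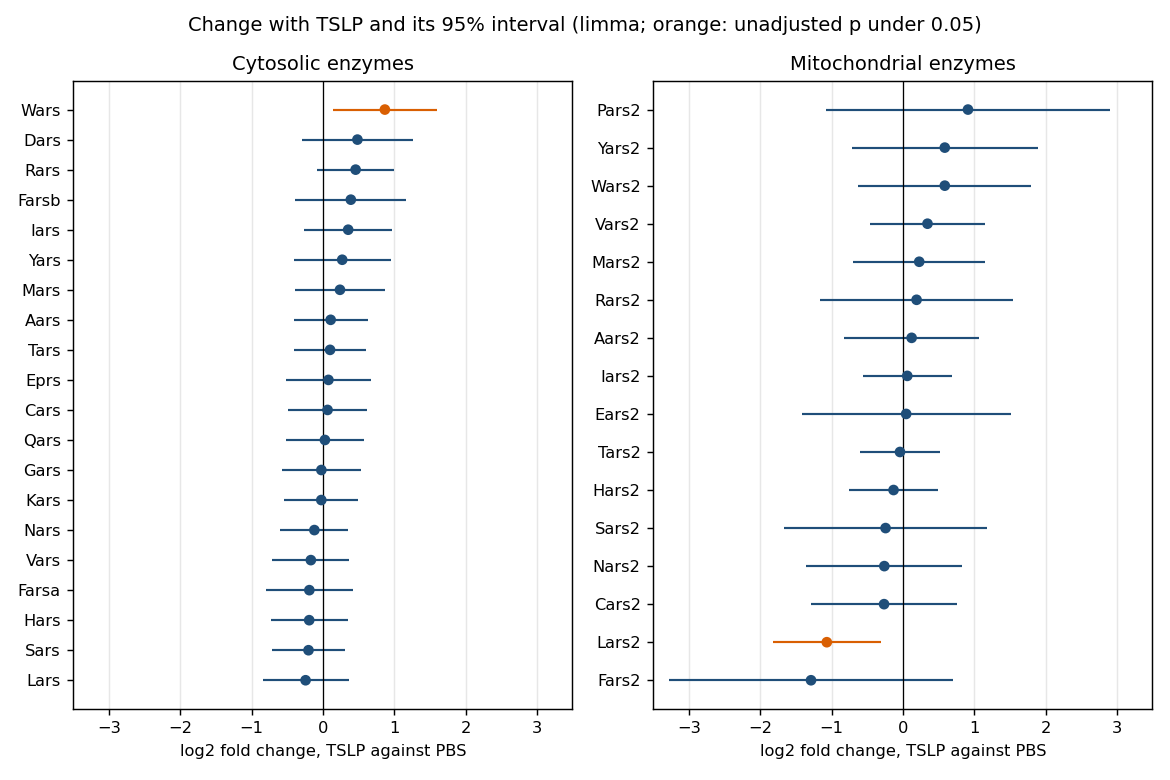
Log2 fold change of each synthetase gene, TSLP against PBS (horizontal axis, limma), with its 95% interval, for the cytosolic (left) and mitochondrial (right) enzymes sorted by fold change, with an unadjusted p under 0.05 in orange. The intervals of Wars and Lars2 keep to one side of 0, and the intervals of most mitochondrial genes are wider than the cytosolic ones.

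Among the 8 cytosolic enzymes of the multisynthetase complex, 6 had a fold change above 0 and 2 below, and their median log2 fold change was 0.16. Rars, the arginine enzyme, had 698 and 696 reads in the PBS libraries, against 1070 and 845 with TSLP. Both TSLP libraries were above both PBS libraries, and the log2 fold change was 0.46 ± 0.24 (SE, n = 2 per group). Dars, the aspartate enzyme, gave a log2 fold change of 0.48 with overlapping groups, since its reads ran from 353 in PBS 1 to 738 in TSLP 2, and it was 0.14 without PBS 1. Eprs, on chromosome 1 (185363044 to 185428360, plus strand), had 10083 and 8437 reads in the PBS libraries, against 12092 and 7708 with TSLP. The TSLP libraries held both the highest and the lowest of these counts, and the log2 fold change was 0.08 ± 0.26 (−0.24 with the trend over exon length removed). Qars, the glutamine enzyme, on chromosome 9 (108507706 to 108515941, plus strand), had 2318 and 1838 reads in the PBS libraries, against 1878 and 2321 with TSLP. The groups lay on top of each other, with a log2 fold change of 0.03 ± 0.24 (−0.037 with that trend removed). Lars, the cytosolic leucine enzyme, had 744 and 1054 reads in the PBS libraries, against 764 and 721 with TSLP, so that PBS 2 stood above the other 3 libraries. Its log2 fold change of −0.24 ± 0.27 was the lowest of the cytosolic genes. Without PBS 1 it was −0.52, with an unadjusted p under 0.05, and without PBS 2 it was 0.030. Iars, Mars and Kars, for isoleucine, methionine and lysine, had log2 fold changes of 0.35, 0.24 and −0.023, and without PBS 1 of 0.085, 0.30 and 0.087. Mars was at 0.020 without TSLP 1 and at 0.46 without TSLP 2.

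The other 12 cytosolic genes were split evenly, 6 above 0 and 6 below, and their median log2 fold change was 0.02. Wars, on chromosome 12 (108860030 to 108894174, minus strand), had 217 and 303 reads in the PBS libraries, against 471 and 460 with TSLP. The groups did not overlap, and the lowest count with TSLP was well above the highest with PBS. The log2 fold change was 0.87 ± 0.32 (95% interval 0.14 to 1.60, limma adjusted p = 0.9999), a ratio of mean normalized counts of 1.80. An unadjusted p under 0.05 was found for Wars in all 12 settings that used the 4 libraries, but when a library was left out, in only 1 of 4. The log2 fold change then ran from 0.61 (without PBS 1, in which Wars was lowest) to 1.13. No 50-base stretch of Wars was shared with another gene, and no other annotated exon overlapped it.

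Farsb, the beta subunit of the phenylalanine enzyme, on chromosome 1 (78417975 to 78488897, minus strand), had 203 and 222 reads in the PBS libraries, against 292 and 262 with TSLP. The TSLP libraries were both higher, with a log2 fold change of 0.39 ± 0.34. Farsb shares 248 bases of exon with Sgpp2 on the opposite strand. Its partner Farsa, the alpha subunit, had 806 and 585 reads in the PBS libraries, against 680 and 524 with TSLP, which gave a log2 fold change of −0.19. The groups overlapped for Farsa, and the subunits of this enzyme had fold changes of opposite sign, neither of which passed the test, but without PBS 1 Farsa was at 0.017. Yars and Tars, for tyrosine and threonine, were above in both TSLP libraries, with log2 fold changes of 0.27 and 0.10. Nars and Vars, for asparagine and valine, were below in both, with −0.12 and −0.17. The remaining cytosolic genes, Aars, Cars, Gars, Hars and Sars, overlapped between the groups, with log2 fold changes of −0.20 to 0.11, and Aars and Gars changed sign without PBS 1 (−0.037 and 0.12). Without that library, Cars, Hars and Sars were at 0.021, −0.021 and −0.039. Aars shares 1326 bases of exon with Exosc6 on the same strand.

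By catalytic class, the 9 cytosolic genes of class I had a median log2 fold change of 0.24 (7 above 0, 2 below), and the 10 of class II had −0.02 (4 above, 6 below). Eprs, which joins both classes in a single protein, is in neither count. In the mitochondrial set without Lars2, class I had 0.21 (7 above, 1 below) and class II −0.13 (2 above, 5 below). Without PBS 1 the cytosolic medians were 0.17 (7 above, 2 below) and 0.049 (6 above, 4 below), and the mitochondrial ones 0.31 (5 above, 3 below) and −0.31 (2 above, 5 below). Without TSLP 2 the cytosolic medians were 0.11 and 0.042, and the mitochondrial ones −0.022 and −0.0087. The difference between the classes was not tested. The 5 cytosolic genes with the Atf4 element core shown above had a median log2 fold change of 0.11 (4 above 0, 1 below), and the 8 with a window but no core had 0.05 (5 above, 3 below). Without PBS 1 these medians were 0.085 (4 above, 1 below) and 0.15 (7 above, 1 below), in the opposite order.

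**Figure D2:**
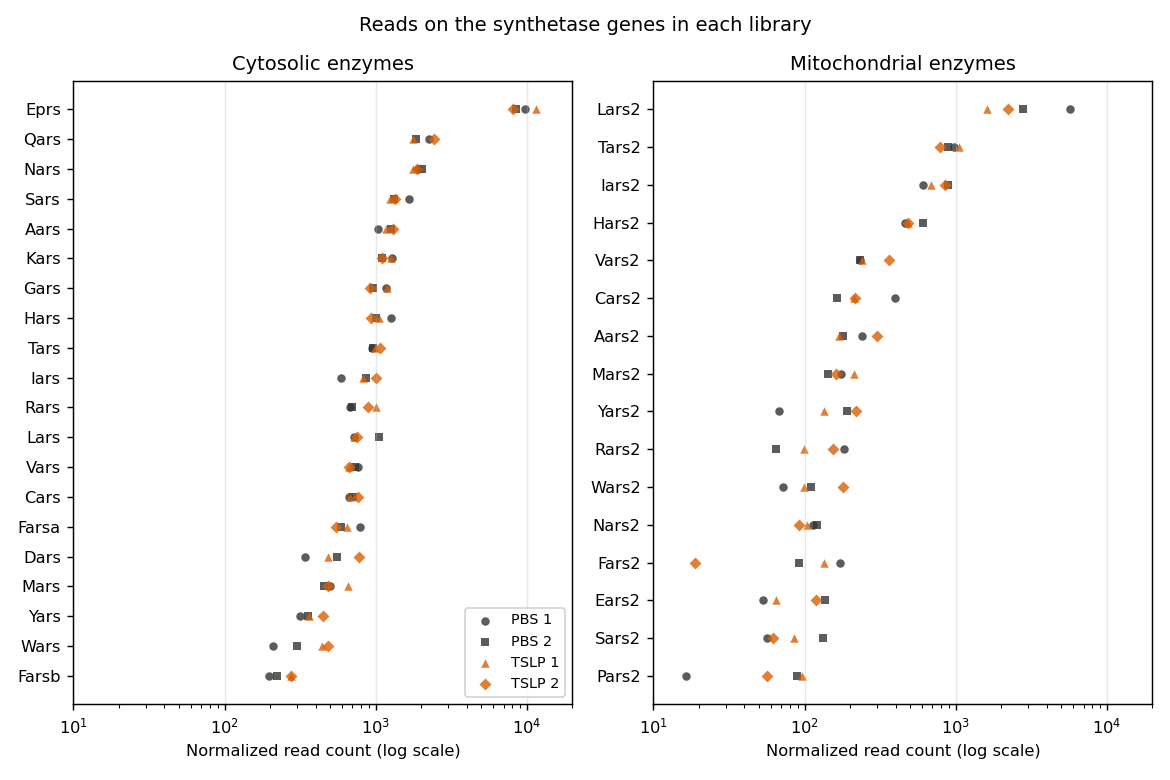
Normalized read counts of each synthetase gene in the 4 libraries (log axis), cytosolic (left) and mitochondrial (right), sorted by mean, with PBS libraries in grey and TSLP libraries in orange. Normalized counts run from 16.5 (Pars2, PBS 1) to 11392 (Eprs, TSLP 1), and the points of a gene spread most among the mitochondrial genes with few reads.

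The mitochondrial enzymes were read less and varied more between libraries. Pars2, the mitochondrial proline enzyme, on chromosome 4 (106651069 to 106655282, plus strand), had 17 and 89 reads in the PBS libraries, against 102 and 54 with TSLP. PBS 1 alone was low, and the other libraries overlapped. Its log2 fold change of 0.91 ± 0.88 was the highest of the mitochondrial set by limma, but it was 0.53 by edgeR and DESeq2 on the recovered reads, 0.90 by edgeR with the replicate number as a block and −0.27 without PBS 1. Fars2, the mitochondrial phenylalanine enzyme, on chromosome 13 (36117412 to 36726280, plus strand), had 177 and 92 reads in the PBS libraries, against 143 and 18 with TSLP. The lowest value in the set, −1.29 ± 0.88, rested on the 18 reads of TSLP 2, and without that library it was 0.10. By edgeR and DESeq2 on the recovered reads it was −0.78, and by edgeR with that block −1.26. Without TSLP 1, the value was −2.68, the one case in which its unadjusted p was under 0.05. Fars2 also shares 616 bases of exon with Nrn1 and Lyrm4 on the opposite strand.

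The mitochondrial genes with the most reads per length had fold changes near 0. Tars2, the threonine enzyme, on chromosome 3 (95739976 to 95760206, minus strand), had 998 and 894 reads in the PBS libraries, against 1108 and 749 with TSLP. The TSLP libraries lay on both sides of the PBS libraries, and the log2 fold change was −0.041 ± 0.25 (−0.12 with the trend over exon length removed). Hars2, the histidine enzyme, had 476 and 608 reads in the PBS libraries, against 513 and 463 with TSLP, which gave a log2 fold change of −0.13 ± 0.28. By normalized count PBS 2 was highest, and the other 3 libraries lay close together, with both TSLP libraries between PBS 1 and PBS 2. Hars and Hars2 lie head to head and share 195 bases of exon on opposite strands, so that reads there could go to either gene if strand was not used in counting. Mars2, the methionine enzyme, on chromosome 1 (55237177 to 55248470, plus strand), had 180 and 143 reads in the PBS libraries, against 225 and 155 with TSLP, which gave a log2 fold change of 0.23 ± 0.41. The groups overlapped again, and the value ran from 0.036 (without TSLP 1) to 0.42 (without TSLP 2) when a library was left out and was 0.025 with the trend over exon length removed.

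Of the other mitochondrial genes, Vars2 had 239 and 232 reads in the PBS libraries, against 255 and 346 with TSLP, and Nars2 had 117 and 121 in the PBS libraries, against 110 and 88 with TSLP. The groups did not overlap in either, with log2 fold changes of 0.34 and −0.26, and neither passed the test. The value of Vars2 ran from 0.051 (without TSLP 2) to 0.64 (without TSLP 1) when a library was left out. Vars2 shares 465 bases of exon with Gm20483 and Nars2 shares 284 with C230038L03Rik, both on the opposite strand. Yars2 and Wars2 each had a log2 fold change of 0.59 and overlapping groups, and without PBS 1 Yars2 was at −0.15 and Wars2 at 0.28. Aars2, Cars2, Ears2, Iars2, Rars2 and Sars2 overlapped too, with values from −0.26 to 0.19. Each of these 6 changed sign when some library was left out, as Sars2 did from −0.85 (without PBS 1) to 0.37 (without PBS 2). Without PBS 1, Rars2 was at 0.92, Cars2 at 0.36, Iars2 at −0.21 and Ears2 at −0.62, and without PBS 2 Cars2 was at −0.89. Iars2 is the member with the most shared sequence when both strands are read. Of its 50-base stretches, 22.7% also occur in Rab3gap2 or 2010103J01Rik, whose exons overlap it on the opposite strand.

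Lars2 had the most reads of the mitochondrial enzymes in every library, and each TSLP library was below each PBS library. It lies on chromosome 9 (123366927 to 123462666, plus strand), and its level was 516 and 259 cpm with PBS and 146 and 205 cpm with TSLP. PBS 1 stood far above the other 3 libraries, and the distance between PBS 1 and PBS 2 was larger than that between PBS 2 and either TSLP library. The 95% interval of the log2 fold change by limma was −1.82 to −0.31 (adjusted p = 0.9999). The unadjusted p was under 0.05 in all 12 settings that used the 4 libraries, but when a library was left out, in only 1 of 4. The log2 fold change then ran from −1.58 (without PBS 2) to −0.55 (without PBS 1). The coefficient of variation of Lars2 over the 4 libraries was 58.5%, while the highest among the cytosolic genes was 34.9% (Wars). These values hold the difference between the groups as well as the spread within them. Such spread was not particular to Lars2, since Fars2 had 62.9% and Pars2 56.4%.

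The ribosomal RNA precursor gene Rn45s, the only listed gene of 12 chosen as a gauge of ribosomal RNA reads, had 5527 and 3842 cpm with PBS and 2518 and 3729 with TSLP. The 4 libraries thus stood in the same order for Lars2 and Rn45s, with PBS 1 highest and TSLP 1 lowest. Rn45s had a log2 fold change of −0.58 (−0.30 without PBS 1), also with both TSLP libraries below both PBS libraries. The part of ribosomal RNA reads in the change of Lars2 was not tested. In the longest protein-coding Lars2 transcript (3894 bases, GENCODE M21), bases 3278 to 3349 matched a transcript of the non-coding gene Gm15564 over 72 bases with 1 mismatch (98.6% identity). It was the one match among 361 transcripts searched, namely those annotated as ribosomal RNA and non-coding genes known to collect ribosomal RNA reads. The stretch lies in the 3′ untranslated part, beyond the coding sequence that ends at base 2908, at chr9:123462048-123462119. The sequence of the 28S ribosomal RNA was not used here, and the place of the reads within Lars2 cannot be read from counts per gene.

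**Figure D3:**
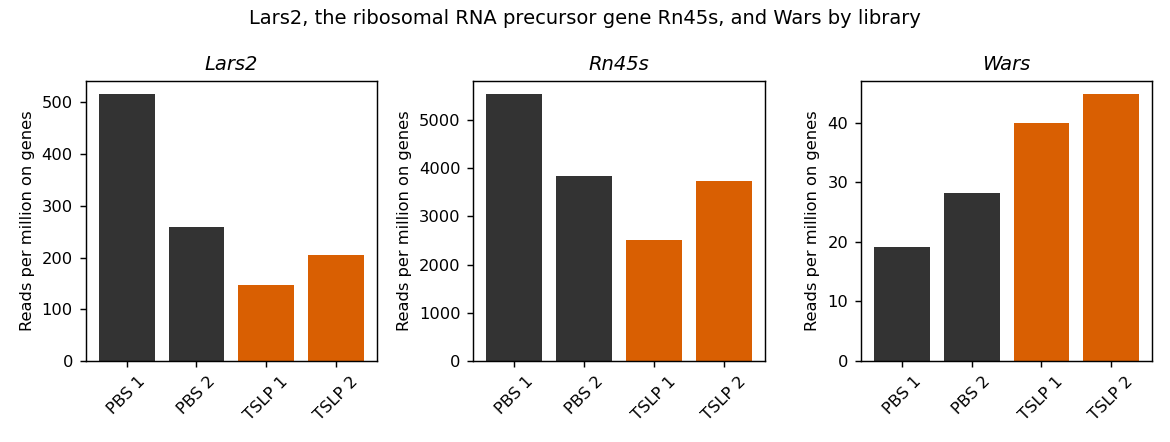
Level in cpm of Lars2, of the ribosomal RNA precursor gene Rn45s and of Wars in each library, with PBS in grey and TSLP in orange (bars, axes from 0). Lars2 and Rn45s are highest in PBS 1 (516 and 5527) and lowest in TSLP 1 (146 and 2518), while Wars is higher in both TSLP libraries.

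Per kb of the longest protein-coding transcript, the RNA of the cytosolic genes was the more abundant. The median level of the cytosolic genes was 246 normalized counts per kb (mean of 4 libraries). For the mitochondrial genes without Lars2 it was 54.7, a ratio of medians of 4.51. Without PBS 1 the ratio was 4.62, and with the union of all exons as length it was 4.53. Among the cytosolic genes, Eprs was highest with 1919 ± 308 per kb (SD, n = 4) and Qars was next with 739 ± 113. Farsb was lowest with 119 ± 19.1, and Wars (127) and Yars (128) lay just above it, closer together than the spread of either. With the union of exons as length, Eprs stayed highest (520), but Nars (434), Hars (433) and Gars (340) were above Qars (315), and Yars (62.4) was below Farsb (92.3). Among the mitochondrial genes, Tars2 (286 ± 34.4) and Hars2 (153 ± 20.1) were highest and Mars2 was lowest (15.3 ± 2.58), with an annotated transcript of 11294 bases that lowers its level per kb. Lars2 had 787 per kb, below Eprs alone, but this place rested on PBS 1. Without that library it had 565 per kb, below Eprs, Qars (718) and Nars (685), and with the union of exons as length it had 276, below 5 cytosolic genes. The coefficient of variation over the 4 libraries had a median of 15.3% in cytosolic genes (5.29% to 34.9%) and 39.8% in mitochondrial genes (11.7% to 62.9%). The mitochondrial genes also had fewer reads, down to 17 in a library, where the lowest cytosolic count was 203.

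Each mitochondrial gene was also set against the cytosolic gene for the same amino acid, with Farsa standing for the cytosolic phenylalanine enzyme. Without Lars2 there were 15 such pairs, and the cytosolic level per kb was the higher in all 4 libraries in 13 of them. The median ratio of cytosolic to mitochondrial level was 4.85, and the highest was 90.6 for Eprs and Pars2. This value varied from 58.9 to 368 in the single libraries and was 24.9 with the union of exons as length, below Eprs and Ears2 (28.7) and Nars and Nars2 (28.1). By transcript length again, the ratio was 24.2 for the asparagine pair, where it lay between 23.0 and 27.9 in the single libraries, and 11.6 for the methionine pair (10.9 to 12.2). The narrowest pair above 1 in every library was Iars and Iars2, with 1.33 (1.19 to 1.48). Cars was above Cars2 in 3 of 4 libraries, with 0.997 in PBS 1. The threonine pair went the other way, since Tars was below Tars2 in 3 of 4 libraries (ratio of means 0.862, range 0.757 to 1.09). With the union of exons as length, the ratio of means was above 1 in all 15 pairs, the threonine pair included. Lars was below Lars2 in every library, with a ratio of 0.259.

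**Figure D4:**
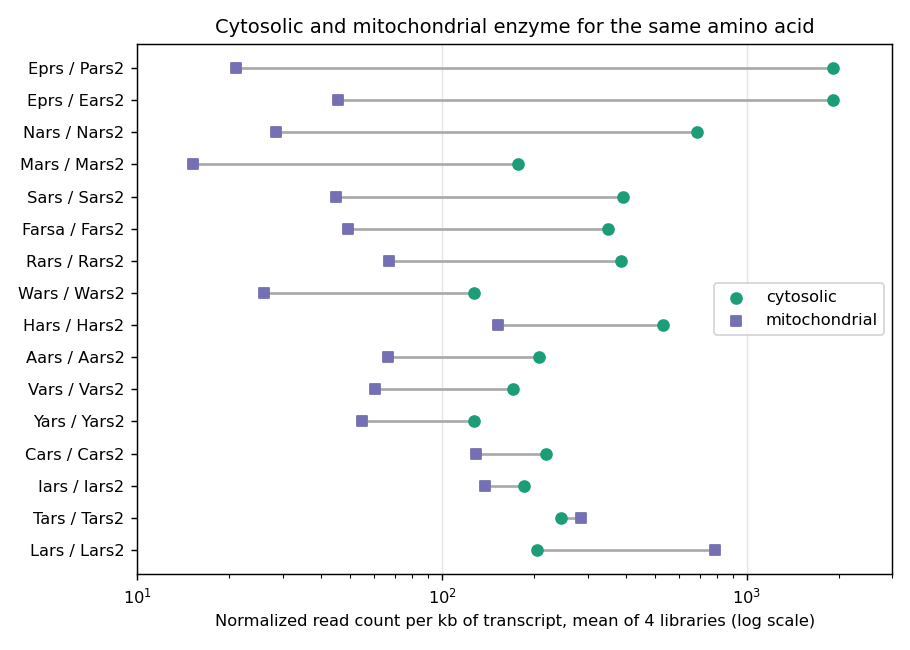
RNA level of the cytosolic (circles) and mitochondrial (squares) gene for the same amino acid, in normalized read counts per kb of the longest protein-coding transcript (log axis, mean of 4 libraries), sorted by ratio. The cytosolic level is the higher except for threonine (246 against 286) and leucine (204 against 787 for Lars2).

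The scaffold proteins that hold the multisynthetase complex together differed between PBS 1 and PBS 2 more than between the groups. Aimp1 had 856 and 374 reads in the PBS libraries, against 580 and 578 with TSLP. Aimp2 had 305 and 181 in the PBS libraries, against 172 and 256 with TSLP. Eef1e1 had 298 and 158 in the PBS libraries, against 219 and 281 with TSLP. The groups overlapped for all 3 genes, with log2 fold changes of 0.044, −0.15 and 0.20. These were 0.62, 0.20 and 0.64 without PBS 1, and −0.53, −0.50 and −0.23 without PBS 2.

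Of 14 other genes of tRNA charging, editing and tRNA ends, 7 had a fold change above 0 and 7 below, with a median of 0.03 on the log2 scale. With a library left out, that median ran from −0.23 (without TSLP 2) to 0.35 (without TSLP 1). Of the 14 genes, 1 passed an unadjusted p of 0.05 by limma, beside 1.69% of all genes tested (0.913% lower with TSLP). This was Aarsd1, which encodes an editing protein that removes wrong amino acids from alanine tRNA. It had 189 and 212 reads in the PBS libraries, against 79 and 88 with TSLP. The groups were well apart, and the log2 fold change was −1.24 ± 0.45 (SE, limma adjusted p = 0.9999). Sepsecs, which makes selenocysteine on its tRNA, had 0 and 36 reads in the PBS libraries, against 58 and 72 with TSLP. Its log2 fold change of 3.42 rests on the 0 of PBS 1 and on the pseudocount of 1, and without PBS 1 it was 0.82.

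The amino acid response, which is known to raise synthetase genes through Atf4, was followed in 28 genes, of which 22 passed the filter. Of these 22, 9 had a fold change above 0 and 13 below, the median log2 fold change was −0.05, and 0 had an unadjusted p under 0.05. Without PBS 1 the median was 0.068, with 13 above 0 and 9 below. Of all genes tested, 1.69% had one, so that a count of 0 among 22 genes does not set the list apart. Atf4 itself had 8336 and 4653 reads in the PBS libraries, against 6133 and 4355 with TSLP, which gave a log2 fold change of −0.26 with overlapping groups (0.14 without PBS 1). Asns, the asparagine synthetase gene, had 47 and 73 reads in the PBS libraries, against 27 and 33 with TSLP. It was below in both TSLP libraries, with a log2 fold change of −0.94. Slc1a4, a neutral amino acid transporter, had 0 and 54 reads in the PBS libraries, against 41 and 25 with TSLP, and its log2 fold change of 2.14 rests on PBS 1, since without that library it was −0.75. Cebpg, a partner of Atf4, had 773 and 842 reads in the PBS libraries, against 1225 and 1053 with TSLP. Both TSLP libraries were higher, with a log2 fold change of 0.50. Chac1, Nupr1, Pycr1 and Vldlr had 0 reads in every library.

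**Figure D5:**
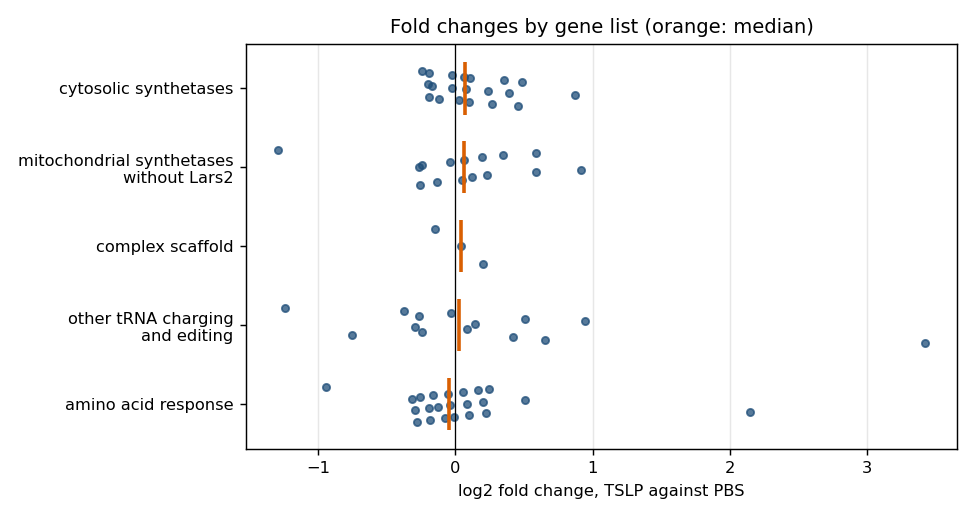
Log2 fold changes (horizontal axis, TSLP against PBS) of single genes (points) in 5 lists, with the median of each list in orange. The medians lie between −0.05 (amino acid response) and 0.07 (cytosolic synthetases, −0.017 with the trend over exon length removed), and the points farthest from 0 are Sepsecs (3.42) and Slc1a4 (2.14), each with 0 reads in PBS 1, without which they were at 0.82 and −0.75.

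Markers of other cells were followed beside these values. The summed CD8 T cell markers were 13.4 and 7.83 cpm with PBS and 8.84 and 12.0 with TSLP. The B cell markers Cd79a, Cd79b and Ms4a1 summed to 0.618 and 10.4 with PBS and 4.08 and 9.35 with TSLP. Of the myeloid markers, which summed to 17.6 and 11.9 with PBS and 8.59 and 8.76 with TSLP, Cd68 (15.4 and 6.15 against 5.02 and 1.56) and Itgam (2.03 and 1.77 against 0.340 and 0.681) were below in both TSLP libraries. Lyz2 (0.0883 and 4.01 against 3.15 and 3.89) overlapped with a log2 fold change of 2.07 (−0.17 without PBS 1), Csf1r was read mainly in TSLP 2 (2.63), and Adgre1 was at 0. The myeloid sum was thus lower with TSLP, but most of it in PBS 1 was Cd68 (15.4 of 17.6 cpm). Cd68 and Itgam were lower with TSLP, while Lyz2 and Csf1r overlapped between the groups, so that the sum does not stand for every myeloid marker. The part of the myeloid markers in the values of the synthetase genes was not tested.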

How the data were processed

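The deposited values are a signal: the authors scaled the reads counted on each gene by one size factor per library. The paper's methods describe single-end reads of a directional library mapped to mm10, and the submitters' processing notes name HISAT2, HTSeq and DESeq2. The gene annotation and the strand setting of the counting are not given in the sources used here. In the table, 27 gene names had turned into dates, the mitochondrially encoded genes are not listed, and neither are 11 of 12 genes chosen as a gauge of ribosomal RNA. Values were whole multiples of a single step per library (100% within 0.01 of a whole number), which gave the reads. Precision is limited by 10271571 to 11761234 reads on genes per library and by 2 libraries per group.

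Since scaled values are no longer counts, limma 3.58.1 (R 4.3.3) with a trend was fitted to log2(normalized count + 1), TSLP against PBS, over all genes with at least 10 normalized counts in at least 2 libraries, with Benjamini-Hochberg adjustment. Fold changes are on this scale. Alternatives were edgeR 4.0.16 and DESeq2 1.42.0 on the recovered reads, TMM, no filter or a filter of 50, pseudocounts of 0.5 and 5, a replicate block, removal of the trend over exon length, leaving out each library and, added later, edgeR with the block, the union of exons as length, counts and set medians without PBS 1, and the fold change of every member and list gene with each library left out, with no test. On the recovered reads, edgeR called 0 genes after adjustment and 234 with an unadjusted p under 0.05.

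Positions, transcript lengths, overlaps and shared 50-base stretches came from GENCODE M21. BLAST 2.17.0+ compared Lars2 with ribosomal RNA-like transcripts, and promoter windows were from RefSeq. Values in every library are given for members with an unadjusted p under 0.05, for Lars2, and in each set for the 2 highest and the 1 lowest by level per kb and those with the largest and smallest fold change. Other members are named with fold changes or in ranges, and some with reads. Of the other lists, genes with an unadjusted p under 0.05 and the 2 largest changes are named. Atf4, Cebpg, Rars, Vars2 and Nars2 were given with reads after their values were seen. The members and lists were chosen with earlier results of these data known. A gene of the lists and a promoter stretch are not reported here.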

Additional observations from a re-analysis of the deposited data

How the results depend on the processing

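No gene had an adjusted p under 0.05 by limma, edgeR or DESeq2 in any setting tried (0 in each), with 192 at an unadjusted p under 0.05 in limma and 234 in edgeR. Wars and Lars2 were the members with an unadjusted p under 0.05 in all settings that used the 4 libraries. When a library was left out, a lone library was assumed to vary like the other group. The members with an unadjusted p under 0.05 then changed with the library left out. The mitochondrial median log2 fold change then ran from −0.15 (without PBS 1) to 0.22 (without TSLP 1), and the cytosolic minus mitochondrial difference from −0.13 to 0.24. Removing the trend over exon length, with or without the replicate block, took the cytosolic median to −0.017, Eprs to −0.24 and Qars to −0.037. Of the 11 genes refitted in each setting, leaving out libraries changed the sign of Eprs (−0.17 to 0.33), Fars2 (−2.68 to 0.10), Hars2 (−0.33 to 0.068), Lars (−0.52 to 0.030), Pars2 (−0.27 to 2.10), Qars (−0.20 to 0.25) and Tars2 (−0.25 to 0.17), and the cause was not tested. Of 244 values under alternatives, 222 were counted as the same. Fold changes of single genes had to keep their direction and their side of an adjusted p of 0.05. Medians had to move by less than the spread between replicates, and counts of genes had to stay within a set ratio. Part of this tally was fixed beforehand, since by limma a filter or a replicate block leaves a fold change as it is. No adjusted p was under 0.05 in any setting, so that no side changed. The differences between numbers 1 and 2 in PBS and in TSLP had a correlation of 0.000720 across 11392 genes. This value cannot show whether the replicate numbers pair the libraries, since the length trend of PBS 1 enters the PBS difference. The labels do not say whether they do. With the replicate block, 258 genes and the same 2 members had an unadjusted p under 0.05, and no call changed. Leaving out PBS 2 raised the genes with an unadjusted p under 0.05 to 1858, and leaving out TSLP 2 lowered them to 79. With 2 libraries per group and down to 17 reads in a member, changes of the sparse mitochondrial genes were not detectable unless large.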
